A study of Mus musculus with 22 samples.

Results

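The 10 genes described here encode the contractile apparatus of smooth muscle and its transcriptional coactivator. They were chosen by name: smooth muscle actin alpha 2 (Acta2), smooth muscle actin gamma 2 (Actg2), smooth muscle myosin heavy chain (Myh11), transgelin (Tagln), calponin 1 (Cnn1), desmin (Des), leiomodin 1 (Lmod1), synaptopodin 2 (Synpo2), myosin light chain kinase (Mylk) and myocardin (Myocd). Array probes were assigned to them through their RefSeq accessions, which gave 12 probes for the 10 genes, 3 of them for Synpo2, out of 55681 probes and 20018 named genes. All 10 genes passed the expression filter, as did 16433 genes in all. Female C57BL/6 mice 8 weeks old received 1 intratracheal dose of Mitsui7, a multiwalled carbon nanotube, in 40 µl, and right lung RNA was taken 24 hours later. The groups held 6 mice at 18 µg, 5 at 54 µg, 6 at 162 µg and 5 controls, which had been instilled with vehicle alone (0.9% NaCl with 10% lavage fluid). Each lung RNA (Cy5) was hybridized to a dual-colour Agilent array with a reference RNA from 11 mouse cell lines (Cy3), and each value below is a log2 ratio of lung to that reference unless it is called a change.

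Smooth muscle surrounds the airways and the blood vessels of the lung. Its cells shorten when myosin motors pull on actin filaments, and myosin light chain kinase starts this pull in response to calcium. Calponin, transgelin and leiomodin bind the actin filaments, while desmin and synaptopodin 2 link the contractile units to the cell's scaffold. Many of these genes are switched on together by serum response factor (SRF), which binds CArG boxes and acts there with its coactivator myocardin.

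Promoter windows of the members to which the results turn are shown because these genes are known as a group with shared regulation. They run from 250 bases before to 50 bases after the gene start (RefSeq, GRCm38.p6), 5′ to 3′ on the strand of the gene, with CArG boxes in capitals. A box was counted with at least 5 of its 6 core bases A or T, which reads the same on both strands. A window was found for 6 of the 10 members, namely Acta2, Cnn1, Des, Lmod1, Mylk and Synpo2. The Acta2 window lay at chr19:34255324-34255623 (minus strand), that of Cnn1 at chr9:22099003-22099302 (plus strand), that of Synpo2 at chr3:123236100-123236399 (minus strand) and that of Des at chr1:75360042-75360341 (plus strand).
Acta2: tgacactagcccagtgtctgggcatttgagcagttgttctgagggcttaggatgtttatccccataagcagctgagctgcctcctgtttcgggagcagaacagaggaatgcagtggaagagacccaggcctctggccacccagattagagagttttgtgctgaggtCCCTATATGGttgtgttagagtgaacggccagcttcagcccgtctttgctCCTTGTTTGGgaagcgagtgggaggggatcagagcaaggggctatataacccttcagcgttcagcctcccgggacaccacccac
Cnn1: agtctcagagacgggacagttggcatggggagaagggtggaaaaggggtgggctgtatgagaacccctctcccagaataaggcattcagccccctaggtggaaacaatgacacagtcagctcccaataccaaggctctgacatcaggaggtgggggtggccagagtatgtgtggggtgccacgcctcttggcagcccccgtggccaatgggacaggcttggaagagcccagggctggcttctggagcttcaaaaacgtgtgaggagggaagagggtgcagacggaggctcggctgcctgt
Synpo2: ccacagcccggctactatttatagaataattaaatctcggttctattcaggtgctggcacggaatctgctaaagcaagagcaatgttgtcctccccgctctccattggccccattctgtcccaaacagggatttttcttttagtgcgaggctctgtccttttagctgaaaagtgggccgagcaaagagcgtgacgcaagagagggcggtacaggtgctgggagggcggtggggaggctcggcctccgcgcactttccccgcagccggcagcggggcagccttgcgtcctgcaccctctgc
Des: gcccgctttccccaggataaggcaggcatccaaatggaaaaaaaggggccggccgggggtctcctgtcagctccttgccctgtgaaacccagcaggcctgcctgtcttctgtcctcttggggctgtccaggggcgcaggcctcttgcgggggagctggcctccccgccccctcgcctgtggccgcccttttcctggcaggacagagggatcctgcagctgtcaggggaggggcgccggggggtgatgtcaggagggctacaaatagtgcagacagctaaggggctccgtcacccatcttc
Acta2 held 2 boxes, CCCTATATGG at bases -84 to -75 and CCTTGTTTGG at bases -34 to -25, where base -1 is the last before the gene start. That start is the annotated one, and the sequence TATATA lies after it in the Acta2 window. Distances to the true start of transcription may therefore differ and were not tested. No box was found in the windows of Cnn1, Synpo2, Des, Lmod1 and Mylk. A box of this kind occurs in 9.98% of the 32851 promoter windows of the mouse table.

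The mean standardized level of the 10 genes had group medians of 0.33 (controls), -0.57 (18 µg), 0.35 (54 µg) and 0.04 (162 µg), and it also varied between the 7 slides on which the arrays lay. The 4 arrays of slide 7, 1 of each group, held the lowest level in the control, 54 µg and 162 µg groups. Slides 3 and 6 held no control. Where mice are counted below or above every control, the ratios are not adjusted for slide. Signal strength, taken as the median over spots of Cy5 signal divided by local background, had a group median of 2.00 for controls (range 1.52 to 2.05). For mice given 18 µg it was 1.44 (range 1.24 to 2.11), for those given 54 µg 1.49 (range 1.37 to 2.07) and for those given 162 µg 1.72 (range 1.18 to 2.50). By slide, the lowest medians were 1.24 on slide 6, 1.38 on slide 7 and 1.4 on slide 3. Over the mice, this signal strength had a Pearson's r of 0.573 with the Cnn1 ratio (n = 20), 0.57 with Synpo2 and 0.629 with Myocd (n = 22 each). With dose and slide removed, these r values were 0.202, 0.206 and 0.125. The other members had r from -0.333 (Mylk) to 0.598 (Myh11), and from -0.404 (Mylk) to 0.0572 (Lmod1) with dose and slide removed. The part of signal strength in the changes below was not tested beyond the slide term.

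**Figure D1:**
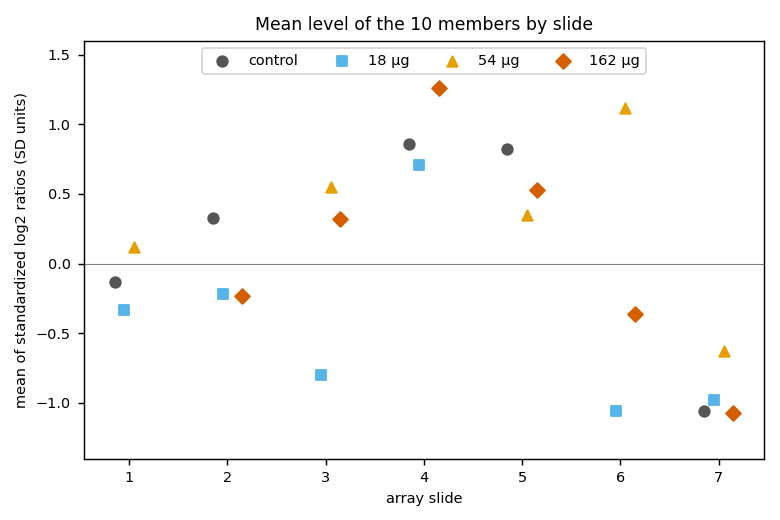
Mean of the standardized log2 ratios of the 10 genes (SD units) for each of the 22 arrays, by array slide, with 1 symbol per group. The arrays of slide 7 lay between -1.07 and -0.63 whatever the dose, and those of slide 4 between 0.71 and 1.26.

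Changes against control were fitted with dose and slide together in limma, and a gene was called at a Benjamini-Hochberg adjusted p of at most 0.05 over all probes and a change of at least 1.5-fold. None of the 10 genes was called at 18 µg, where 2.07% of the expressed genes were called, at 54 µg, where 0.389% were, or at 162 µg, where 6.87% were. At an unadjusted p below 0.05 in limma, 4 members (Cnn1, Synpo2, Des and Lmod1) lay below control with 18 µg and none above, against 13.2% and 9.1% of expressed genes. With 54 µg, 3 members (Acta2, Actg2 and Myocd) lay above control and none below, against 5.98% and 7.91%. With 162 µg, 2 members (Cnn1 and Synpo2) lay below control and none above, against 15.4% and 13.5%. Over the 10 genes the log2 changes had a median of -0.30 with 18 µg, 0.33 with 54 µg and 0.00 with 162 µg, while the medians of all expressed genes were -0.02, -0.01 and -0.01. The 3 comparisons share the same 5 controls. In whole lung RNA, fewer smooth muscle cells and less RNA per cell cannot be told apart. The p-values measure the spread between single mice.

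**Figure D2:**
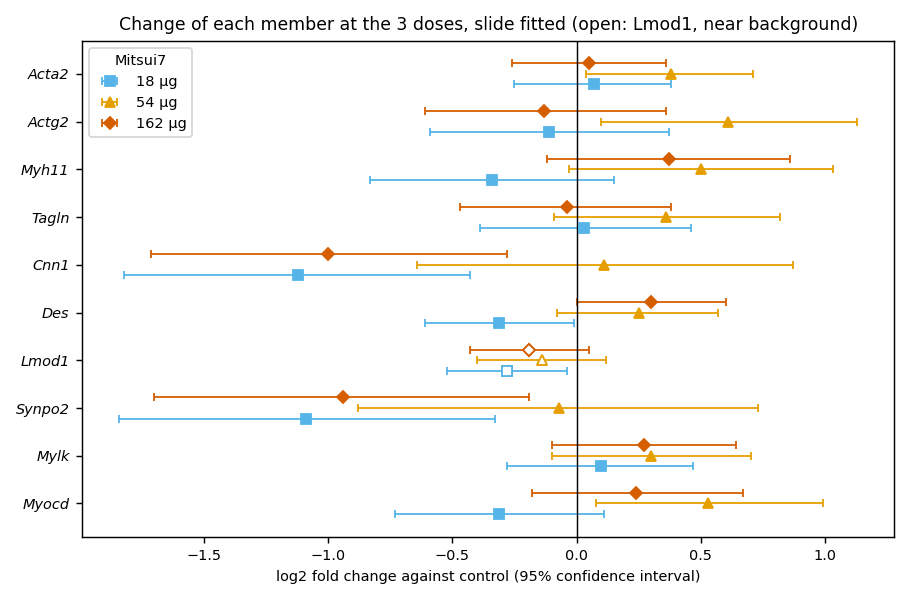
Log2 fold change of each gene against control at 18 µg (squares), 54 µg (triangles) and 162 µg (diamonds), from the fit of dose and slide over 22 arrays, with 95% confidence intervals. Intervals lay below 0 for Cnn1 and Synpo2 at 18 µg and 162 µg and for Des (-0.61 to -0.01) and Lmod1 (-0.52 to -0.04) at 18 µg, and above 0 at 54 µg for Acta2 (0.04 to 0.71), Actg2 (0.10 to 1.13) and Myocd (0.08 to 0.99). No gene passed the adjusted threshold. Open symbols mark Lmod1, whose signal was near background.

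The actins and transgelin form and dress the thin filament. The Acta2 ratio was 0.46, 0.40, 0.88, 1.06 and -0.44 in the 5 controls and 0.85, 0.80, 0.72, 0.13 and 0.98 at 54 µg. It ranged from 0.08 to 1.54 with a median of 0.35 at 18 µg, and from -0.48 to 1.56 with a median of 0.48 at 162 µg. All 4 groups overlapped for this actin of vascular and airway muscle. Its log2 change was 0.07 (SE 0.15, adjusted p = 0.894) at 18 µg, 0.38 (SE 0.16, adjusted p = 0.494) at 54 µg and 0.05 (SE 0.15, adjusted p = 0.93) at 162 µg. The small positive values at 18 µg and 162 µg turned negative with other scalings of the arrays, to -0.49 and -0.22 without normalization, and the value at 18 µg was -0.07 without slide 7.

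Actg2, the actin best known from visceral muscle, had a ratio of 0.71, 0.71, 1.19, 1.61 and -0.74 in controls and of 1.08, 0.89, 1.41, 0.19 and 1.80 at 54 µg. Its log2 change at 54 µg was 0.61 (SE 0.24), the highest of the 10 genes at that dose, but with an adjusted p of 0.448. At 18 µg and 162 µg its changes were -0.11 (SE 0.23) and -0.13 (SE 0.23), with adjusted p of 0.88 and 0.867. Only 1 mouse at 54 µg lay above all controls, so the groups overlapped almost fully. Muscle actins are near-identical as proteins. Probe sequences were not used here, so signal shared between Acta2, Actg2 and the striated muscle actins is uncertain.

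Tagln, an actin cross-linker that marks the smooth muscle lineage, had mean ratios of 0.95 ± 0.56 (SD, n = 5) in controls, 0.97 ± 0.60 (n = 6) at 18 µg, 1.16 ± 0.34 (n = 5) at 54 µg and 0.93 ± 0.55 (n = 6) at 162 µg. The group means differed by less than the SD within any group. Its log2 changes were 0.03, 0.36 and -0.04 at the 3 doses, with adjusted p of 0.965, 0.711 and 0.956. At 18 µg the sign turned without normalization (-0.52) and without slide 7 (-0.17).

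**Figure D3:**
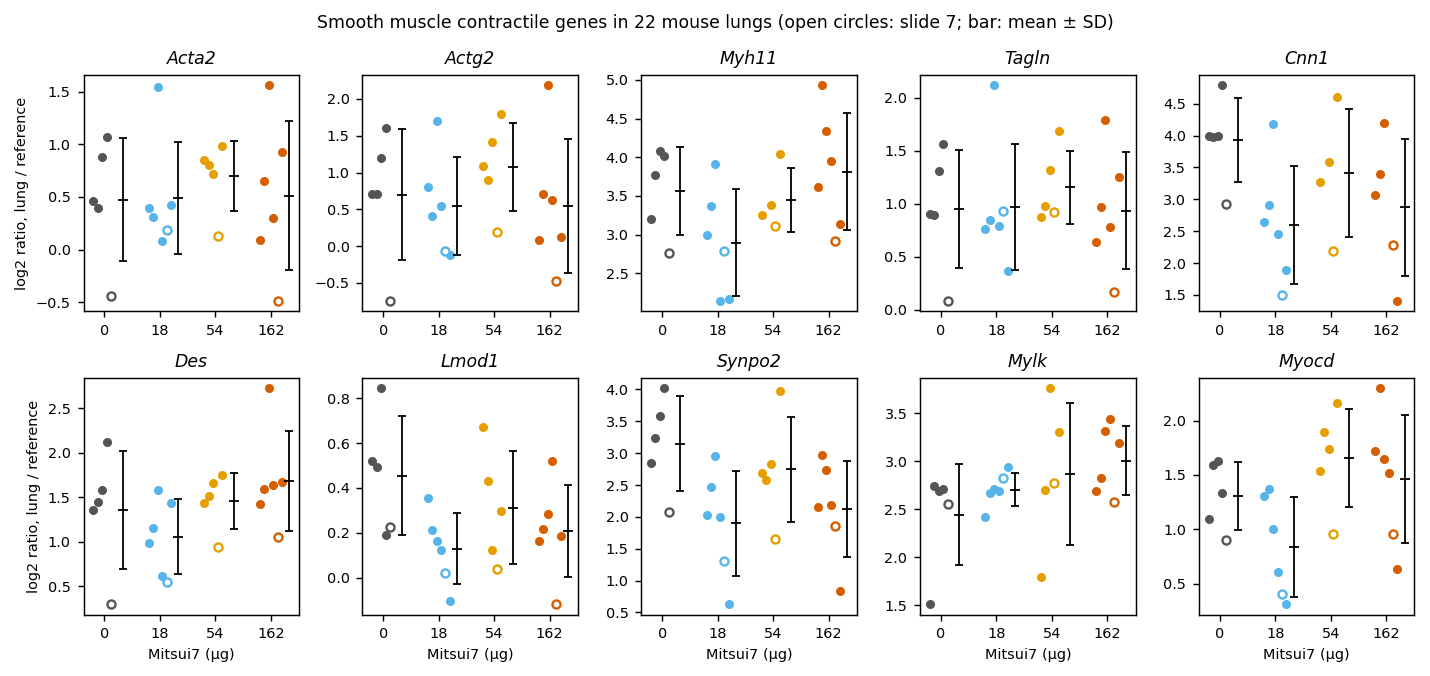
Log2 ratio of lung to reference for each of the 10 genes in each mouse, by dose of Mitsui7 (µg; 0 is vehicle control), with the group mean ± SD beside the points. Open circles are the arrays of slide 7, which are low in most genes. At 18 µg, 5 of 6 mice for Cnn1, 4 of 6 for Synpo2 and 4 of 6 for Lmod1 lie below every control, and no gene separates a dosed group fully from the controls. These counts are not adjusted for slide, slides 3 and 6 held no control, and the Lmod1 signal was near background.

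Neither the myosin heavy chain nor its kinase was called. The Myh11 ratio was 3.21, 3.78, 4.08, 4.02 and 2.76 in controls. It ranged from 2.15 to 3.92 with a median of 2.89 at 18 µg, and from 2.91 to 4.93 with a median of 3.79 at 162 µg. At 54 µg, 4 of 5 mice had a value, from 3.11 to 4.04, since the spots of the fifth were marked as outliers. The log2 change of this motor protein was -0.34 (SE 0.23, adjusted p = 0.537) at 18 µg, 0.50 (SE 0.25, adjusted p = 0.626) at 54 µg and 0.37 (SE 0.23, adjusted p = 0.461) at 162 µg. From 18 to 162 µg Myh11 differed by 0.71, with an adjusted p of 0.0775.

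Mylk phosphorylates the myosin light chain and thereby starts contraction. Its ratio was 1.52, 2.74, 2.69, 2.71 and 2.56 in controls, 4 of which lay within a narrow band. At 18 µg the 6 mice lay between 2.42 and 2.94, the tightest group of the series for this gene (SD 0.17). At 54 µg and 162 µg the means were 2.87 ± 0.73 (SD, n = 5) and 3.01 ± 0.36 (n = 6). Its log2 changes of 0.10, 0.30 and 0.27 had adjusted p of 0.862, 0.744 and 0.49, and without normalization those at 18 µg and 162 µg were -0.35 and -0.02.

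Cnn1 and Synpo2 had the lowest log2 changes of the 10 genes at 18 µg and at 162 µg. Cnn1 encodes calponin, which binds actin and restrains the myosin motor. Its ratio was 3.99, 3.98, 3.99, 4.79 and 2.93 in controls. At 18 µg it was 1.49 in the lowest mouse, 2.55 at the median and 4.18 in the highest, and 5 of 6 mice lay below every control. The fitted change was -1.12 on the log2 scale (SE 0.33, 95% confidence interval -1.82 to -0.43), which missed the threshold with an adjusted p of 0.0971. At 54 µg the ratio was 3.27, 3.58, 2.18 and 4.61 in the 4 mice with a value, inside and around the control range, and the change was 0.11 (SE 0.35, adjusted p = 0.978). At 162 µg it ran from 1.41 over a median of 3.07 to 4.20 in the 5 mice with a value, 2 of them below every control. The change there was -1.0 (SE 0.34, 95% confidence interval -1.71 to -0.28, adjusted p = 0.104).

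Synpo2 encodes a partner of alpha-actinin and filamin at the dense bodies and Z-discs of muscle. On its brightest probe the ratio was 2.85, 3.23, 3.58, 4.02 and 2.07 in controls and 2.69, 2.58, 2.82, 1.65 and 3.97 at 54 µg. At 18 µg it ran from 0.64 over a median of 2.01 to 2.96, with 4 of 6 mice below every control. At 162 µg it ran from 0.83 over a median of 2.17 to 2.97, with 2 of 6 mice below. The log2 changes were -1.09 (SE 0.36, adjusted p = 0.138) at 18 µg, -0.07 (SE 0.38, adjusted p = 0.987) at 54 µg and -0.94 (SE 0.36, adjusted p = 0.152) at 162 µg. The other 2 Synpo2 probes, close to background with control means of 0.19 and 0.09, had log2 changes of -0.05 and -0.03 at 18 µg and of -0.15 and 0.11 at 162 µg. With the mean over the probes of the gene, the Synpo2 change was -0.38 at 18 µg and -0.30 at 162 µg.

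Cnn1 and Synpo2 were looked at within slides as the members with the lowest changes. The doses on a slide share its control, and the share of all expressed genes lower on every slide was not computed. Within slides, both genes lay below the control of the same slide at every dose. For Cnn1 this held on 4 of 4 slides at 18 µg (-1.43 to -0.61), 2 of 2 at 54 µg (-0.74 and -0.72) and 4 of 4 at 162 µg (-0.92 to -0.58). For Synpo2 it held on 4 of 4 slides at 18 µg (-1.06 to -0.76), 3 of 3 at 54 µg (-1.0 to -0.16) and 4 of 4 at 162 µg (-1.28 to -0.21). When limma was fitted on the 2 groups compared alone, which rests on these slides, Cnn1 and Synpo2 were called lower at 18 µg, at -1.11 (adjusted p = 0.0319) and -0.85 (adjusted p = 0.0291), where 0.7% of expressed genes were called. In the same way Cnn1 and Synpo2 were called at 162 µg, at -0.68 (adjusted p = 0.0165) and -0.80 (adjusted p = 0.0453), where 7.15% were called. At 54 µg that fit called Cnn1 lower at -0.73 (adjusted p = 0.0356), where 3.71% were called, in the opposite direction to its value over all arrays. These fits had 3, 2 and 3 residual degrees of freedom at 18, 54 and 162 µg. The 54 µg value of Cnn1 over all arrays also turned to -0.45 without 54 µg replicate 5, which lay on a slide with no control. Without that mouse, Cnn1 and Synpo2 were called at 18 µg, where 3.57% of expressed genes were called, and at 162 µg, where 7.87% were. Cnn1 was also called at 18 µg without 162 µg replicate 6, where 3.41% were.

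**Figure D4:**
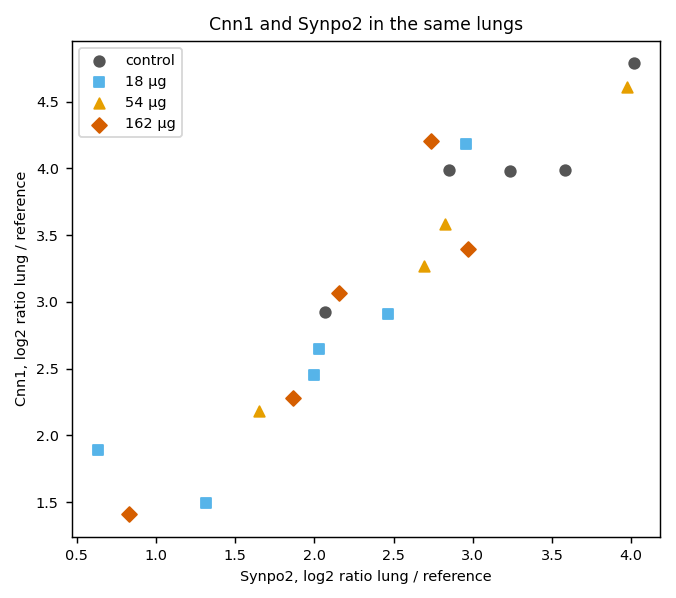
Cnn1 against Synpo2, both as log2 ratios of lung to reference, in the 20 mice with both values, with 1 symbol per group. The genes vary along a common line over all groups together (Pearson's r = 0.943). The lowest Cnn1 ratios, 1.41, 1.49, 1.89, 2.18 and 2.28, came from mice at 18 µg, 54 µg and 162 µg, all on slides 6 and 7. The parts of dose and slide in this low end were not tested.

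Des encodes the intermediate filament of muscle and was the only member called between doses. Its ratio was 1.35, 1.45, 1.58, 2.12 and 0.31 in controls and 1.44, 1.52, 1.66, 0.94 and 1.75 at 54 µg. At 18 µg it ran from 0.55 over a median of 1.07 to 1.58, and at 162 µg from 1.05 over a median of 1.61 to 2.72. Against control the log2 changes were -0.31 (SE 0.14, adjusted p = 0.307) at 18 µg, 0.25 (SE 0.15, adjusted p = 0.737) at 54 µg and 0.30 (SE 0.14, adjusted p = 0.279) at 162 µg. At 162 µg Des was 1.53-fold higher than at 18 µg, a log2 difference of 0.61 (SE 0.13, 95% confidence interval 0.33 to 0.89, adjusted p = 0.0139), and 4.98% of expressed genes were called in that comparison. The ratios of both groups overlapped. Of 22 fits that each left out a single mouse, 17 kept the call, and it was lost without 18 µg replicate 3 or 4 or 162 µg replicate 3, 4 or 5. It was kept under 7 of 16 other settings, over which the difference ranged from 0.38 to 0.76.

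The remaining differences between doses did not pass the threshold. Between 54 and 18 µg no member was called, where 0.0304% of expressed genes were. At an unadjusted p below 0.05 (limma), 6 members were above and 0 below, against 8.26% and 6.77% of expressed genes. Cnn1 differed by 1.24 (adjusted p = 0.211), Synpo2 by 1.01 (adjusted p = 0.361) and Myocd by 0.84 (adjusted p = 0.142) on the log2 scale in that comparison. Without 54 µg replicate 5 these differences were 0.61, 0.40 and 0.55. Between 162 and 18 µg, 3 members were above and 0 below at that p, against 14.5% and 12.1%. Between 162 and 54 µg no expressed gene was called (0%), and 4 members were below and 0 above at an unadjusted p below 0.05 (limma), against 5.79% and 6.63%. Cnn1 was 1.11 lower and Actg2 0.74 lower there, with adjusted p of 0.34 and 0.337. Without 54 µg replicate 5 these differences were -0.37 and -0.46.

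Lmod1, which seeds actin filaments in smooth muscle, was too dim for a fold. Its Cy5 signal was well above background by the scanner's mark in 1 of 5 controls and in 0 mice of the 3 dosed groups. Its log2 ratio was 0.45 ± 0.26 (SD, n = 5) in controls, 0.13 ± 0.16 (n = 6) at 18 µg, 0.31 ± 0.25 (n = 5) at 54 µg and 0.21 ± 0.21 (n = 6) at 162 µg. Its fitted values at the 3 doses, with adjusted p of 0.241, 0.848 and 0.428, are included in the counts and medians above.

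Myocd, the coactivator that turns on the contractile genes with SRF, was also dim, and its signal was well above background in 5 of 5 controls, 3 of 6 mice at 18 µg, 5 of 5 at 54 µg and 5 of 6 at 162 µg. Its ratio was 1.09, 1.59, 1.63, 1.33 and 0.90 in controls and 1.54, 1.89, 1.74, 0.96 and 2.16 at 54 µg. At 18 µg it ran from 0.31 over a median of 0.81 to 1.37, and at 162 µg from 0.64 over a median of 1.58 to 2.30. The log2 changes were -0.31 (SE 0.20, adjusted p = 0.515), 0.53 (SE 0.22, adjusted p = 0.455) and 0.24 (SE 0.20, adjusted p = 0.619) at 18, 54 and 162 µg. From 18 to 162 µg Myocd differed by 0.55 (adjusted p = 0.12).

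Between mice the 10 genes varied together to unequal degrees. The 45 pairs had a median Pearson's r of 0.548 over 20 to 22 mice (-0.304 to 0.943), and 26 of them were over 0.5. The mice share slides, signal strength and the way each lobe was sampled, so these values describe the arrays and carry no test. With group means removed the median was 0.57, and with dose and slide removed it was 0.401, with 41 of 45 pairs above 0. Cnn1 and Synpo2 were the closest pair (r = 0.943, Spearman's rho = 0.932, n = 20), with r = 0.928 without the 2 mice farthest from the median and r = 0.872 with dose and slide removed. Acta2 and Tagln followed with r = 0.907 (rho = 0.846, n = 22), and 0.82 with dose and slide removed. Myh11 and Myocd had r = 0.823 (rho = 0.835, n = 21), and 0.726 with dose and slide removed. For Acta2 and Des, r was 0.798 over all mice and 0.359 with dose and slide removed. Mylk had r values of at most 0.352 over all mice, the highest with Des (rho = 0.65). With dose and slide removed, Mylk had r = 0.504 with Des, 0.503 with Actg2 and 0.486 with Myocd.

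**Figure D5:**
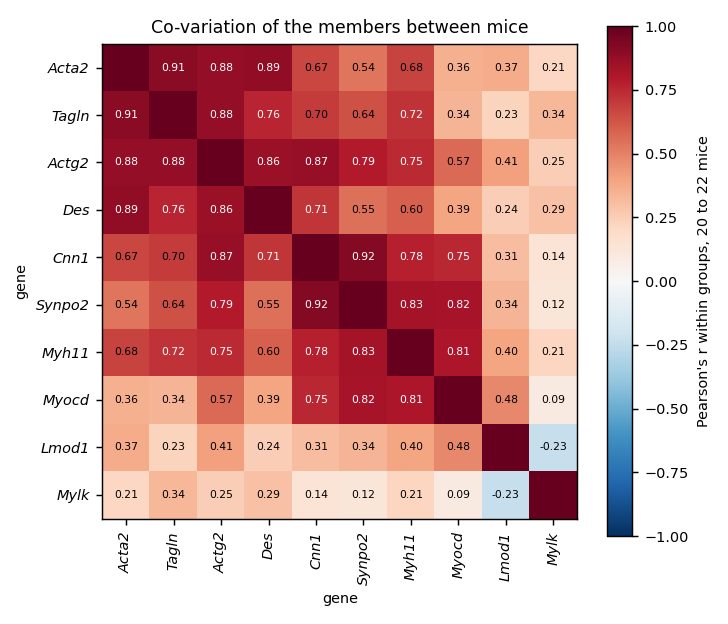
Pearson's r between the log2 ratios of each pair of the 10 genes after the group means were removed, over 20 to 22 mice, on a colour scale from -1 to 1. The pairs of Lmod1 lay between -0.227 and 0.483 and those of Mylk between -0.227 and 0.335, while Actg2 reached 0.88 with Tagln, 0.868 with Cnn1 and 0.862 with Des.

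The genes most like the members were ranked by Pearson's r with the mean standardized level of the 10 genes, over 16103 expressed genes with at least 20 values. Tpm2, a tropomyosin of the thin filament (r = 0.874, n = 22), and Myl9, the regulatory light chain of smooth muscle myosin (r = 0.851), were among the 10 highest. The other 8 were Ltf (0.874), Spef1l (0.873), Ptprz1 (0.828), Klhdc9 (0.824), Dsg2 (0.821), Adam28 (0.82, n = 20), Klk11 (0.814) and Ggt6 (0.809). Ltf encodes lactotransferrin, a secreted iron-binding protein, and Dsg2 a desmoglein of cell junctions. The changes of these 10 genes at 18 µg ran from -1.58 for Ltf to -0.46 for Dsg2, and Tpm2 alone was called there. The ranking used the same arrays, on which the members' own level had its lowest group median at 18 µg. A low value at that dose thus follows in part from the choice and is no separate result. Ltf was at 0.76 with 54 µg and 0.37 with 162 µg, with adjusted p of 0.832 and 0.845 (limma).

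The wider contractile apparatus was described with 24 partner genes, 12 transcriptional regulators and 22 receptors and channels, all expressed. Calls among the partners were Tpm2 with 18 µg and Actn1 and Itga8 with 162 µg, and none with 54 µg. The shares of expressed genes called at 18, 54 and 162 µg were 2.07%, 0.389% and 6.87%. With 54 µg, 1 partner was higher and 0 were lower at an unadjusted p below 0.05 (limma), against 5.98% and 7.91% of expressed genes. Tpm2 fell at 18 µg by 0.68 on the log2 scale (SE 0.16, adjusted p = 0.0485), although in 2 of 6 mice alone it lay below every control, and the call was kept in 3 of 22 fits without 1 mouse and under 4 of 16 other settings. Actn1, which encodes alpha-actinin 1, an actin cross-linker of many cell types, rose at 162 µg by 0.71 (SE 0.20, adjusted p = 0.0461) with 6 of 6 mice above every control, where 3.72% of expressed genes had all mice above, and kept the call in 8 of 22 such fits and under 9 of 16 other settings. Itga8, the integrin alpha 8 of mesenchymal cells, fell at 162 µg by 0.71 (SE 0.16, adjusted p = 0.0145), with 4 of 5 mice below every control, and lost the call only without 162 µg replicate 1 among single mice, but kept it under only 9 of 16 other settings.

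Calls among the receptors and channels included Mrvi1 with 18 µg and Itpr1 with 162 µg, and there were none with 54 µg. With 54 µg, 2 were higher and 2 lower at an unadjusted p below 0.05 (limma), against 5.98% and 7.91% of expressed genes. Mrvi1, which anchors the cGMP signal to the calcium store, fell at 18 µg by 0.75 (SE 0.14, adjusted p = 0.0197) with 6 of 6 mice below every control, where 1.98% of expressed genes had all mice below. The Mrvi1 call was kept in 19 of 22 fits with a mouse left out and under 10 of 16 other settings. Itpr1, the inositol trisphosphate receptor of that store, fell at 162 µg by 0.68 (SE 0.12, adjusted p = 0.00296) with 6 of 6 mice below every control, where 4.48% of expressed genes had all mice below, and kept the call in 22 of 22 fits and under 14 of 16 other settings.

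None of the 12 regulators was called at any dose. At an unadjusted p below 0.05, limma put 1 regulator above and 3 below control with 18 µg, 2 above and 0 below with 54 µg, and 1 above and 0 below with 162 µg. Of all expressed genes, 9.1% lay above and 13.2% below with 18 µg, 5.98% and 7.91% with 54 µg, and 13.5% and 15.4% with 162 µg. The 3 regulators with the smallest p at 162 µg were Tgfbr2, a receptor of transforming growth factor beta, at 0.50 (SE 0.13, adjusted p = 0.0284, under 1.5-fold), Smad3, which carries that signal to the nucleus, at -0.17 (adjusted p = 0.401), and the Notch ligand Jag1 at -0.27 (adjusted p = 0.463). The median changes were -0.17, 0.07 and -0.13 for the partners, -0.17, -0.01 and -0.01 for the regulators and -0.20, 0.07 and 0.05 for the receptors and channels at 18, 54 and 162 µg.

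Markers of other cells of the lung sample were measured on the same arrays. The 12 cardiac muscle markers, which heart muscle and the sleeves of the pulmonary veins express, all had values below 0 at 18 µg, with a median of -0.95. Against 9.1% and 13.2% of expressed genes, 0 were higher and 1 lower at an unadjusted p below 0.05 (limma), and none of these markers was called. Their mean level per mouse, relative to the control mean, ran from -2.21 to 2.24 among controls. Among dosed mice it ran from -2.28 to 0.43 (18 µg), from -2.15 to 1.81 (54 µg) and from -2.32 to 1.32 (162 µg). The highest mouse given 18 µg was thus at the control median of 0.43. Over mice this level had r = 0.697 with Cnn1 (n = 20), 0.662 with Synpo2 and 0.54 with Des (n = 22 each). With dose and slide removed the values were 0.509, 0.70 and 0.332. The other members had r from 0.193 (Lmod1) to 0.612 (Myh11), and from -0.0715 (Acta2) to 0.668 (Myocd) with dose and slide removed. The 7 airway epithelial markers had median changes of -0.29, -0.10 and -0.36. Of these markers 1 was called, Cyp2f2 of the club cells, at -1.0 (adjusted p = 0.00507) at 162 µg, where 6.87% of expressed genes were called. The level of the airway markers per mouse ran from -0.35 to 0.53 in controls, from -1.06 to 0.53 at 18 µg, from -1.0 to 0.21 at 54 µg and from -0.82 to 0.38 at 162 µg. It had r = 0.79 with Cnn1 (n = 20) and 0.682 with Synpo2 (n = 22), and 0.722 and 0.49 with dose and slide removed. For the other members r ran from 0.16 (Lmod1) to 0.706 (Tagln), and from -0.108 (Mylk) to 0.564 (Myh11) with dose and slide removed. The part of the other cells in the changes of Cnn1, Synpo2 and Des was not tested.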

How the data were processed

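Right lung RNA of 22 mice was measured on dual-colour arrays, 1 per mouse. The authors deposited an intensity for each channel of every spot, the median over its pixels with no background subtraction or normalization, and per the file headers the software was Feature Extraction 10.7.3.1. A log2 ratio table was deposited too, whose normalization is not given in the sources used here. Its column medians lay between -0.05 and -0.02, its values ran in the same direction as the ratios computed here (r of 0.834 to 0.998 per array), and it served as an alternative. Its values were compressed on some slides. A line fitted to them on the ratios computed here had a slope of 0.587 to 0.662 on slide 7. On slide 3 the slope was 0.725 to 0.816, and on the other slides it was 0.906 to 0.996.

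Outlier spots were left out and control spots given no weight. Log2 of Cy5 over Cy3 was normalized by loess (span 0.3) array by array, and replicate spots were summarized by their median. Computations used R 4.3.3, limma 3.58.1 and data.table (version 1.17.8). The linear model held dose and slide over 22 arrays, with 12 residual degrees of freedom, and took the place of the MAANOVA test of the methods. A probe was expressed with a Cy5 signal above the trimmed mean (5%) plus 3 trimmed SD of 308 negative control spots in 80% or more of a group's arrays. Among the probes of a gene, the brightest stood for it. The number of arrays limits the precision, with a median standard error of 0.131 at 18 µg, 0.14 at 54 µg and 0.131 at 162 µg. The model was also run on simulated data in which 200 probes carried a log2 change of 1.5, larger than any change of a member. Of these, 97.5%, 96% and 97% were called at 18, 54 and 162 µg. Changes of the size seen in the members were not simulated.

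Named were the 10 members, genes of the partner, regulator and receptor lists called at any dose (or the 3 with the smallest p at 162 µg), and the 10 genes most like the members, apart from 1 gene of these lists that is not reported here. The cell type lists and Cyp2f2 were described beside them, Cyp2f2 being chosen after its values were seen. The members and lists were chosen with earlier results of these data known. Alternatives were normexp (offset 50), median centring, no normalization, between-array quantiles, the deposited log2 table, the Cy5 channel scaled to its 75th percentile, other slide and replicate terms, other filters and probe rules, the compared groups alone, single mice left out and, chosen after seeing the data, slide 7 left out.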

Additional observations from a re-analysis of the deposited data

Results flagged for a closer look

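Of the 40 combinations of a member and a group, 4 held a mouse far from the rest of its group by Dixon's test, where chance marks about 1 in 20 groups. At 18 µg, replicate 3 had an Acta2 log2 ratio of 1.54, with the next mouse at 0.42. The same mouse had a Tagln ratio of 2.12, with the next at 0.93. At 162 µg, replicate 3 had a Des ratio of 2.72, with the next at 1.67. In controls, replicate 1 had a Mylk ratio of 1.52, with the next at 2.56. The mice of 18 µg replicate 3 and 162 µg replicate 3 were hybridized on slide 4. The cause was not tested.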

How the results depend on the processing

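The numbers of members called at 18, 54 and 162 µg were 0, 0 and 0 in the analysis reported. They were 2, 1 and 2 when the 2 groups compared were fitted alone, and 2 at 18 µg with the replicate block together with slide, where 2.67% of expressed genes were called. With single mice left out they ranged from 0 to 2, 0 to 0 and 0 to 2. The median change of the members then ranged from -0.32 to -0.23, from 0.26 to 0.42 and from -0.11 to 0.12. Between 162 and 18 µg the 1 call (Des) became 0 with normexp, median centring, no normalization, the Cy5 channel alone, the deposited log2 table, no slide term, slide as a random block, the replicate block in place of slide, and the 2 groups alone, and ranged from 0 to 2 with single mice left out. Between 54 and 18 µg and between 162 and 54 µg the range was 0 to 0.

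With single mice left out, Acta2 (-0.06 to 0.14), Actg2 (-0.25 to 0.01), Tagln (-0.11 to 0.17) and Mylk (-0.10 to 0.20) changed sign at 18 µg, Cnn1 (-0.45 to 0.51) and Synpo2 (-0.52 to 0.25) at 54 µg, and Acta2 (-0.07 to 0.15), Actg2 (-0.27 to 0.05) and Tagln (-0.17 to 0.09) at 162 µg. At 18 µg, Acta2 was -0.33, Tagln -0.36 and Mylk -0.19 with median centring, and -0.49, -0.52 and -0.35 without normalization. With the deposited table they were -0.02, -0.04 and -0.02. With the Cy5 channel alone, Acta2 was -0.10, Tagln -0.14, Lmod1 0.15 and Myocd 0.01 at 18 µg, and Myh11 -0.02 at 162 µg. At 162 µg, Acta2 and Mylk were -0.21 and -0.01 with median centring and -0.22 and -0.02 without normalization, and Acta2 was -0.04 with the deposited table. Cnn1 at 54 µg was -0.16 with the deposited table, -0.52 with no slide term, -0.29 with slide as a random block, -0.18 with outlier spots kept and -0.73 with the 2 groups alone. In the fit of the 2 groups alone, Actg2 was 0.14 at 18 µg and Acta2 -0.02 at 162 µg. Myh11 at 54 µg was -0.12 with no slide term. Without slide 7, Acta2 and Tagln were -0.07 and -0.17 at 18 µg and Synpo2 0.03 at 54 µg. The causes were not tested.

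The replicate numbers in the labels were not used as a block in the analysis reported. Of 31 same-numbered pairs, 20 had a correlation over 0.1 (the lowest was -0.169), and 11 lay on a common slide. Of 22 mice, 13 correlated best with a mouse of their own number. Whether the numbers mark a pairing of the mice was not tested further. With the replicate block in place of slide, Acta2 was -0.02 at 18 µg, Cnn1 -0.48 at 54 µg and Tagln 0.01 at 162 µg, and no member was called against control. With the replicate block together with slide, Cnn1 (-1.18) and Synpo2 (-0.85) were called at 18 µg, Actg2 was 0.03 at 18 µg, Cnn1 -0.61 and Lmod1 0.05 at 54 µg, and Actg2 0.16 and Tagln 0.08 at 162 µg.

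Signal over background limits Lmod1 and Myocd most. The lowest Synpo2 ratios at 18 µg and 162 µg, 0.64 and 0.83 (replicate 6 of each group), also came from dim spots. Their Cy5 signals were 116.5 and 113.5, against expression thresholds of 79.9 and 80.1 on those arrays.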

Other observations

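Other cell markers gave further values. Rgs5, a pericyte gene, rose at 162 µg by 1.25 (SE 0.20, adjusted p = 0.00129, limma), with 5 of 6 mice above every control, and at 54 µg it was at 1.03 (adjusted p = 0.0621). It was the 1 gene called among 9 pericyte markers, and 6.87% of expressed genes were called at 162 µg. Of the 9 pericyte markers, 5 lay above and 4 below 0 at 162 µg, with a median change of 0.09. Col3a1, a fibrillar collagen, was the 1 gene called of 12 fibroblast markers. It fell at 162 µg by 0.96 (SE 0.25, adjusted p = 0.0292), with 6 of 6 mice below every control. Of all expressed genes, 4.48% had all mice below. Of the 12 fibroblast markers, 6 lay above and 6 below 0 at 162 µg, with a median change of -0.14. Kdr, a receptor for vascular endothelial growth factor, was the 1 of 8 endothelial markers called, at 0.65 (SE 0.16, adjusted p = 0.0478) at 18 µg. At that dose 2.07% of expressed genes were called. All 8 endothelial markers lay above 0 at 18 µg, with a median change of 0.2. No mesothelial, neutrophil, alveolar epithelial or skeletal muscle marker was called. Of all expressed genes, 9.1% lay above and 13.2% below control at an unadjusted p below 0.05 (limma) with 18 µg. These shares were 5.98% and 7.91% with 54 µg, and 13.5% and 15.4% with 162 µg. At an unadjusted p below 0.05 (limma), the counts above and below control were 2 and 0 of 5 mesothelial markers with 18 µg and again with 162 µg, 0 and 1 of 7 neutrophil markers with 18 µg and 2 and 0 with 162 µg, 1 and 0 of 8 alveolar epithelial markers with 18 µg, and 0 and 3, 0 and 1, and 0 and 1 of 8 skeletal muscle markers with 18, 54 and 162 µg. Median changes at 18, 54 and 162 µg were 0.97, 0.08 and 0.34 for 5 mesothelial markers, -0.06, 0.19 and 0.64 for 7 neutrophil markers, 0.21, -0.08 and 0.06 for 8 alveolar epithelial markers, and -0.23, -0.07 and -0.06 for 8 skeletal muscle markers. These genes were named after their values were seen.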
